A study of Mus musculus with 15 samples.

Results

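The genes described here are 31 genes of the hypoxia response and of glycolysis, read in lymphatic endothelial cells of mice that carried a transplanted melanoma. They were taken as a fixed list of symbols, chosen with earlier results of these data known. All 31 were found among the 21839 genes of the count table and passed the filter on low counts. They fall into 14 glycolytic enzymes, 5 transporters and regulators of glycolysis, and 12 other targets of hypoxia signalling. The lymphatic cells came from the tumor (Tumor), from the lymph node that drains it (TdLN) and from a non-draining node (NdLN), with 5 libraries in each group. Every mouse was of strain C57bl/6 and 10 weeks old, and the line placed in them was a mouse melanoma line described as lymphangiogenic, so the NdLN libraries also come from tumor-bearing mice. Cells of digested tissue were sorted as CD45-negative, CD31-positive and gp38-positive. Nothing in the labels says that libraries of a group came from different animals, so the spread behind each p-value may be partly technical. The melanoma was a single transplanted line, and RNA of each library was amplified from a small input.

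Cells that lack oxygen stabilise the transcription factors HIF-1 and HIF-2, because prolyl hydroxylases that mark the HIF alpha subunits for destruction need oxygen to work. HIF binds a short DNA element and raises genes for glucose uptake, glycolysis, pH control, mitophagy, collagen hydroxylation and vessel growth, and also genes of the hydroxylases themselves. Endothelial cells draw much of their energy from glycolysis even when oxygen is present, and the regulator gene Pfkfb3 is known for driving glycolysis in sprouting vessels. Melanoma cells are also known for high glycolysis.

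Total counts were 31894931 to 37437282 in NdLN, 32134127 to 37043976 in TdLN and 23830337 to 34577494 in Tumor libraries, the lowest being Tumor 1. Levels are given as CPM, the counts scaled to a library of 1000000 counts by library total and TMM factor, a correction for unequal composition. The lymphatic regulator Prox1 was found in every group, with a mean of 766 ± 52.9 CPM for NdLN, 539 ± 74.9 for TdLN and 105 ± 22.7 for Tumor (SD, n = 5). Of 10 lymphatic markers 5 were lower and 2 higher in Tumor than in TdLN libraries, where 30.1% of all genes were lower and 31.9% higher. The Tumor libraries stood apart by transcripts of pigment cells. There 9 pigment cell markers summed to 2.68% to 4.16% of all counts, against 0.00117% to 0.00326% in TdLN and 0.00169% to 0.00362% in NdLN libraries, and no marker was at 0 in all libraries of a group.

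Are genes of hypoxia and glycolysis expressed at other levels in the lymphatic cells of the tumor than in those of the draining node? All 14 glycolytic enzymes were higher in the Tumor libraries, with a median log2 fold change of 2.52. Across the 31 genes 24 were higher, 2 lower and 5 did not pass. The 12 other hypoxia targets split, with 7 higher, 1 lower and 4 that did not pass, and a median of 0.84. Of the 5 transporters and regulators, 3 were higher, 1 was lower and 1 did not pass, with a median of 0.43. Over all 13887 genes tested with edgeR's quasi-likelihood test, 62.0% passed an adjusted p of 0.05, 31.9% higher and 30.1% lower, and the median log2 fold change was 0.04. A called log2 fold change above 1 was found in 12 of the 14 enzymes and 5 of the 12 other targets, against 18.9% of all genes. The difference between the roles is a description of these lists and was not tested.

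The summed counts show the same contrast. The 14 enzymes held 1.73%, 1.60%, 1.61%, 1.61% and 1.67% of all counts in Tumor 1 to 5. In TdLN 1 to 5 they held 0.311%, 0.279%, 0.334%, 0.234% and 0.255%, and in NdLN 1 to 5 0.251%, 0.234%, 0.243%, 0.236% and 0.231%. Every Tumor library was thus far above every node library. For the 12 other targets the share was 0.125% to 0.171% in Tumor, 0.0902% to 0.103% in TdLN and 0.102% to 0.112% in NdLN libraries. Tumor and node libraries did not overlap here either, but with a much smaller distance. Abundant genes weigh most in such sums. Ndrg1, the most abundant other target, was at 565 ± 40.4 CPM in TdLN and 523 ± 91.3 CPM in Tumor libraries (SD, n = 5) and did not pass. Of the enzymes, Aldoa, Ldha, Pkm and Tpi1 were the most abundant in Tumor libraries.

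**Figure D1:**
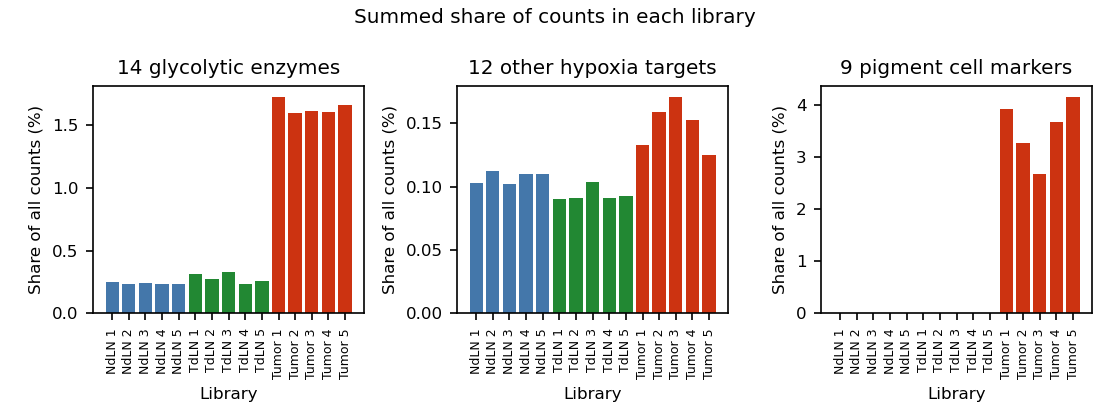
Summed share of all counts (%, linear axes from 0) of the 14 glycolytic enzymes, the 12 other hypoxia targets and the 9 pigment cell markers, 1 bar per library, coloured by group. The enzymes and the pigment markers are high in all 5 Tumor libraries, while the other hypoxia targets differ less between groups.

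In the same Tumor libraries, where 31.9% of all genes were higher and 30.1% lower than in TdLN, markers of other cells and states moved as well. The 9 pigment cell markers tested, 10 of 10 fibroblast markers and 10 of 11 macrophage markers were higher than in TdLN libraries, and so were 11 of 12 cell cycle genes. Of the blood endothelial markers 3 of 11 were higher and 4 lower, of the leukocyte markers tested 1 of 5 was higher and 1 lower, and none of 5 erythrocyte markers passed. Of 13 immediate early genes, which answer to stress within minutes, 12 were lower. Fibroblast markers summed to 0.141% to 1.08% of counts against 0.0112% to 0.0359% in TdLN libraries. Macrophage markers summed to 0.0219% to 0.0371% against 0.00865% to 0.0180%. No marker of these lists was at 0 in all libraries of a group. The part of pigment cell, fibroblast or macrophage RNA in the differences of the hypoxia and glycolysis genes was not tested, and in sorted bulk RNA fewer cells of a type and less RNA per cell cannot be told apart.

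**Figure D2:**
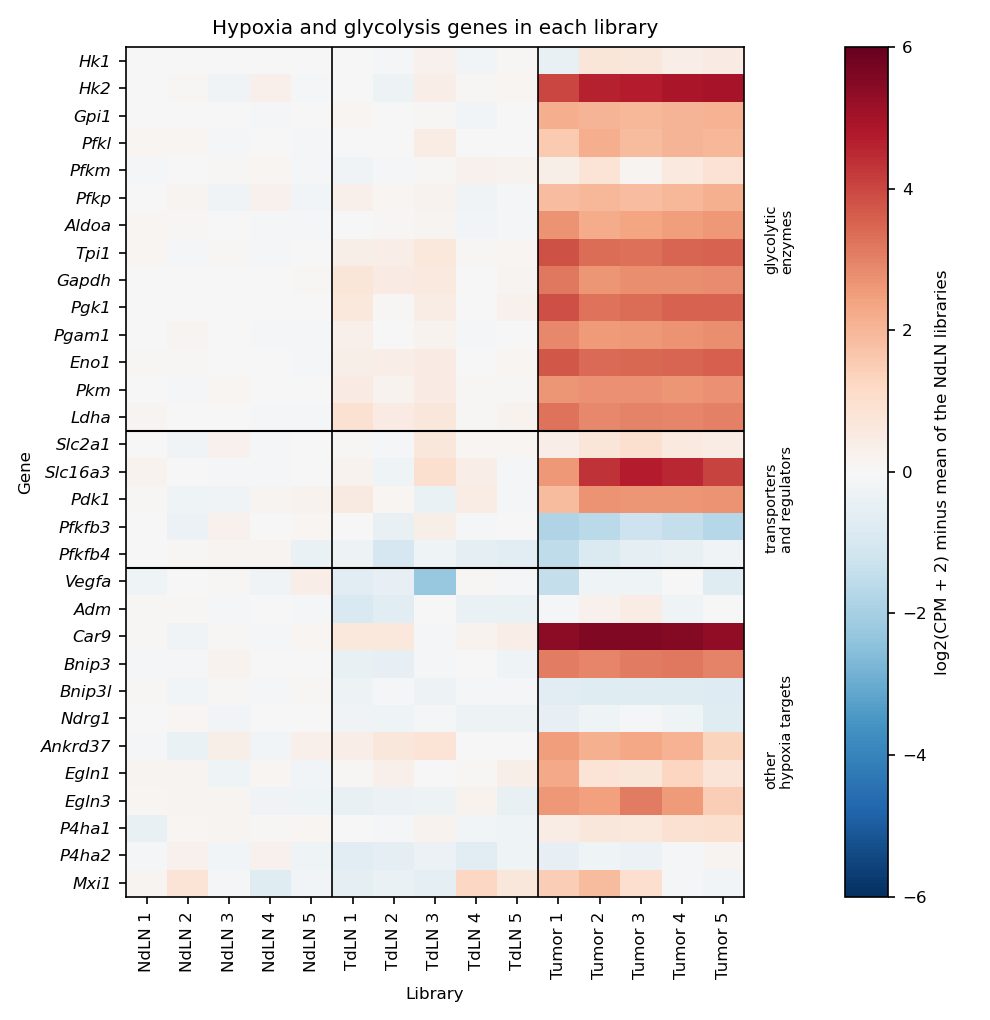
Each cell is log2(CPM + 2) of a gene in a library minus the mean of the 5 NdLN libraries, with genes in rows by role and libraries in columns by group. The enzyme block is red across the Tumor libraries, but pale for Hk1 and Pfkm, and Hk1 in Tumor 1 is below the NdLN mean. The block of other targets holds both raised and lowered genes.

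Longer transcripts tended to be lower and shorter ones higher in the Tumor libraries. Over all genes with a known length, the median log2 fold change against TdLN ran from 0.46 in the sixth of genes with the shortest longest transcript to -0.29 in the sixth with the longest. The median transcript length was 2656 bases for the 14 enzymes and 3160 bases for the 12 other targets. With an offset for this trend, an alternative added after seeing the data, 23 members were higher and 2 lower, against 24 and 2, and the member that no longer passed was Adm (0.23, adjusted p = 0.33). All 14 enzymes passed with the offset.

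The core of the DNA element that HIF binds was looked for as ACGTG or GCGTG, on both strands, in RefSeq promoter windows of GRCm38.p6 that run from 250 bases before to 50 after a gene's start. Matches can overlap across strands, as in CACGTG, which holds ACGTG on each strand, and each match was counted. A window was held for 29 of the 31 members, and 35 of their 44 windows (79.5%) had a match, against 43.8% of all 32851 windows of the table. For ACGTG alone the shares were 56.8% and 19.6%. The members' windows were also richer in G and C, with a median of 62.7% against 52.7% for all windows. Both roles held matches, in 18 of 24 windows of enzymes and in 11 of 13 windows of other targets. A match is a description of these letters and not a binding site.

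Promoters are printed for enzymes and for other targets, as the members of each role with the most matches (Ldha and Hk1, and Bnip3 before Ankrd37 and P4ha2, which tied) and the member of each role with the largest change in Tumor against TdLN (Hk2 and Car9). Where a gene had several windows, the window with the most matches was taken. The capitals mark each match. The windows are chr7:46845554-46845853 (plus strand) for Ldha, chr10:62340372-62340671 (minus strand) for Hk1, chr6:82774405-82774704 (minus strand) for Hk2, chr7:138909457-138909756 (minus strand) for Bnip3, chr8:45999801-46000100 (minus strand) for Ankrd37, chr11:54100674-54100973 (plus strand) for P4ha2 and chr4:43506776-43507075 (plus strand) for Car9, and each is written 5′ to 3′ along its gene.
Ldha: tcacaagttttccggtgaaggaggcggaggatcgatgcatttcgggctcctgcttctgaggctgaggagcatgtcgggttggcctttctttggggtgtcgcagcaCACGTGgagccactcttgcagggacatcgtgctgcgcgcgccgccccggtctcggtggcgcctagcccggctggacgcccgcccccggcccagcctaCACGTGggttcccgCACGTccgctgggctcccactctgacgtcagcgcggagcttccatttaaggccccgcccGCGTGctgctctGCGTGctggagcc
Hk1: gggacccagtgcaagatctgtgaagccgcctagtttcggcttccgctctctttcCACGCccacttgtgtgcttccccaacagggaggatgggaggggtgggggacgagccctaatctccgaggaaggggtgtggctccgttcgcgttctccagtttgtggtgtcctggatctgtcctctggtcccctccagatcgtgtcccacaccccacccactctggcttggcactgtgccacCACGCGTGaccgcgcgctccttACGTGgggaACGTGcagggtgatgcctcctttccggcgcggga
Hk2: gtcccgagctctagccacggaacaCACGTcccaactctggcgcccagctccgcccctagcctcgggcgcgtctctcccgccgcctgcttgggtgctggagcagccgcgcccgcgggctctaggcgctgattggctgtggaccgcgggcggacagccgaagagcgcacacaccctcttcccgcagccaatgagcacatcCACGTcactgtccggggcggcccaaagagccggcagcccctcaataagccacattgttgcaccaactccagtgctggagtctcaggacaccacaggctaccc
Bnip3: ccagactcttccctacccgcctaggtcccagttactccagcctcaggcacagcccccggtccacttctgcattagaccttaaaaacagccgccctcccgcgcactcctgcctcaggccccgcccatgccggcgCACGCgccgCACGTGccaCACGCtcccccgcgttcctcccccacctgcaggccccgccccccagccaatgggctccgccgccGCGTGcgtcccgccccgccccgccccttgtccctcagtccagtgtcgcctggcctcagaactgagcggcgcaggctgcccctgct
Ankrd37: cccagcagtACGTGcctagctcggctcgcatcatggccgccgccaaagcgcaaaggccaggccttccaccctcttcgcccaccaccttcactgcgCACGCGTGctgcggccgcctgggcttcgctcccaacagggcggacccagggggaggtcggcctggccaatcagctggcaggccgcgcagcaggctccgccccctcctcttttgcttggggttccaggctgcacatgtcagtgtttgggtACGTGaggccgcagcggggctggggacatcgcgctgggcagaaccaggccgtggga
P4ha2: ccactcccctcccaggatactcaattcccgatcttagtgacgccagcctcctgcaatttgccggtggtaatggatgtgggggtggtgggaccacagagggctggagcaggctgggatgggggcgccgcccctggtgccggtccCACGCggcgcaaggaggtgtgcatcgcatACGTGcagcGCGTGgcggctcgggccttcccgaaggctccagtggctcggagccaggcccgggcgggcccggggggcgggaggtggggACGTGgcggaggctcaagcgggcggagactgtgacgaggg
Car9: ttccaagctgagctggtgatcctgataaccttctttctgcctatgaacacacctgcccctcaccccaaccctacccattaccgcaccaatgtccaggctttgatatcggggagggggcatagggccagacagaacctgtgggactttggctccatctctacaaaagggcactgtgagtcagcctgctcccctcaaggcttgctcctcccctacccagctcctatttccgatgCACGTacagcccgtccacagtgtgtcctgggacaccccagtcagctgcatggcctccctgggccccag
The printed genes were picked for many matches or a large change, so they cannot show how the 2 relate across the members. In the printed windows Ldha had 7 matches and a log2 fold change of 2.53, Hk1 had 5 and 0.40, and Bnip3 had 5 and 3.56. Hk2 had 2 and 6.04, and Car9 had 1 and 5.59. Ldha and Hk1 have 2 windows each, and the window not printed held 2 matches for Ldha and 0 for Hk1. With 4 matches each, Ankrd37 had 2.48 and P4ha2, which did not pass, 0.28.

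Hexokinases trap glucose in the cell as glucose 6-phosphate, and Hk2 (ENSMUSG00000000628, chr6:82725025-82774454 on the minus strand; all gene positions are GRCm38, from GENCODE M21) had the largest change of the enzymes. Hk2 was at 45.8, 71.5, 76.3, 87.9 and 90.8 CPM in Tumor 1 to 5. In TdLN 1 to 5 it was at 0.952, 0.443, 1.96, 1.10 and 1.20 CPM, and in NdLN 1 to 5 at 0.893, 1.10, 0.566, 1.69 and 0.762 CPM. It was close to 0 in the nodes, and each Tumor library was far above each node library. The log2 fold change in Tumor against TdLN was 6.04 ± 0.39 (SE, edgeR adjusted p = 5.11e-09). The other hexokinase, Hk1, which most tissues hold, was at 184, 421, 402, 331 and 357 CPM in Tumor 1 to 5. Its TdLN values were 255, 240.3, 298, 226 and 263 CPM and its NdLN values 245, 245, 255, 256 and 258 CPM. Tumor 1 was below all node libraries and the other Tumor libraries were above all of them. Its log2 fold change of 0.40 ± 0.17 had an adjusted p = 0.0453, and leaving out a library ended the call in 8 of 10 fits, all but those without TdLN 3 and without Tumor 1, with values from 0.28 (without Tumor 2) to 0.56 (without Tumor 1).

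Upper glycolysis rearranges the sugar and splits it. Gpi1, the glucose-6-phosphate isomerase, rose from 207 ± 15.9 to 883 ± 37.6 CPM (SD, n = 5). The phosphofructokinases, which set the pace of the pathway, all rose. Pfkl was at 460.0, 714, 576, 634 and 609.7 CPM in Tumor 1 to 5 and at 153, 155, 209, 153 and 158 CPM in TdLN 1 to 5. Its NdLN values were 165, 165, 142, 152 and 147 CPM, so that the Tumor libraries stood clear of both nodes, by 1.85 ± 0.12 on the log2 scale against TdLN. Pfkp, the platelet form, changed by nearly the same amount (1.90 ± 0.12). Pfkm, the muscle form, was at 49.3, 67.1, 43.0, 57.9 and 70.7 CPM in Tumor and 32.2, 35.3, 40.3, 45.9 and 43.6 CPM in TdLN libraries, which overlapped. Its NdLN values were 34.2, 37.3, 40.1, 40.8 and 36.3 CPM, all below the Tumor values, and its log2 fold change against TdLN was 0.55 ± 0.14 (adjusted p = 0.00357). Aldoa, the aldolase, rose from 644 ± 55.5 to 3641 ± 442 CPM. Tpi1, triosephosphate isomerase, rose from 245 ± 38.9 to 2262 ± 325 CPM.

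Lower glycolysis yields ATP and pyruvate, and its enzymes were all higher. Pgk1, the phosphoglycerate kinase, was at 113, 74.7, 79.1, 89.6 and 90.9 CPM in Tumor 1 to 5 and at 10.1, 6.23, 8.75, 5.66 and 7.50 CPM in TdLN 1 to 5. In NdLN libraries Pgk1 lay within a narrow range, at 6.03, 5.94, 5.71, 5.93 and 5.95 CPM. Its log2 fold change of 3.55 ± 0.17 was the second largest of the enzymes. Eno1, the enolase (ENSMUSG00000063524, chr4:150236721-150248879 on the plus strand), was at 1303, 1050.3, 1060.3, 1089 and 1164 CPM in Tumor 1 to 5. It was at 123, 127, 135, 96.2 and 104 CPM in TdLN 1 to 5 and at 102, 99.99, 95.7, 95.3 and 89.8 CPM in NdLN 1 to 5. No Tumor library came near a node library, and the log2 fold change was 3.27 ± 0.11 (adjusted p = 7.48e-12). Ldha, the lactate dehydrogenase subunit that turns pyruvate into lactate (ENSMUSG00000063229, chr7:46841475-46855627 on the plus strand), was at 3738, 2859.8, 3105, 2993 and 3128 CPM in Tumor 1 to 5. Ldha was at 723, 544, 613, 412 and 445 CPM in TdLN and 431, 385, 399, 374 and 353 CPM in NdLN libraries. Tumor 1 was the highest of the Tumor libraries, and all TdLN libraries but TdLN 4 were above every NdLN library. Gapdh (2.54 ± 0.14), Pgam1 (3.03 ± 0.15) and the pyruvate kinase gene Pkm (2.43 ± 0.10) rose too. Of the 14 enzymes 12, all but Hk1 and Pfkm, were higher without overlap between Tumor and TdLN libraries, against 24.1% of all genes. Among the other targets 6 of 12 were higher and 1 lower without overlap, where 22.5% of all genes were lower without it.

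**Figure D3:**
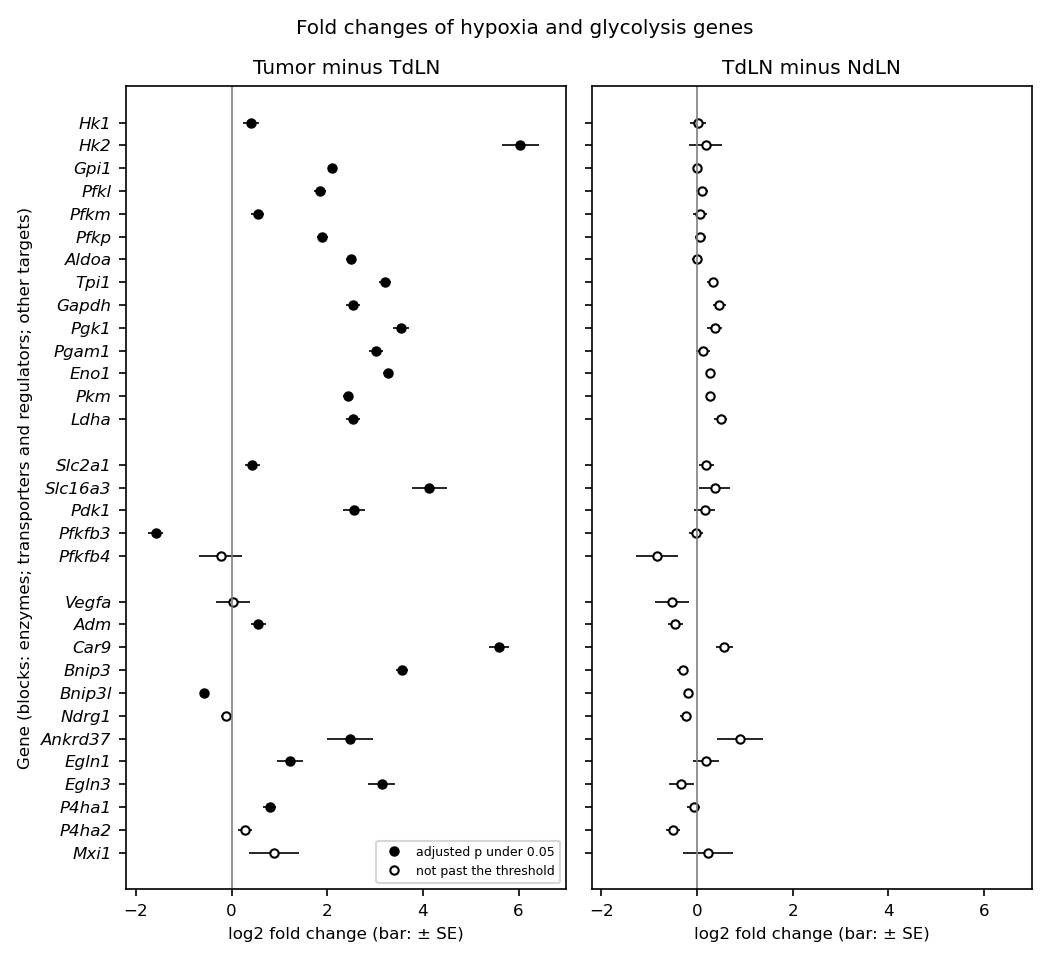
Log2 fold change (x axis, bars ± SE) of each gene (y axis, in blocks by role) in Tumor against TdLN (left) and TdLN against NdLN (right), from edgeR, with filled circles at an adjusted p under 0.05. In the left panel all 14 enzymes lie to the right of 0 and the other targets spread from -0.57 to 5.59, and in the right panel no gene is filled.

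Levels can be set against each other only per length of exon. On that scale Aldoa was the highest enzyme in the Tumor libraries, at 1251 ± 152 CPM per kb, before Ldha at 956 ± 102, Tpi1 at 822 ± 118 and Pkm at 521 ± 20.9 CPM per kb. The SD ranges of Ldha and Tpi1 overlapped, but Ldha was above Tpi1 in every Tumor library. In Tumor 1 to 5 Ldha was at 1129, 864, 938, 904 and 945 CPM per kb. Tpi1 was at 1008, 733, 709, 813 and 845 CPM per kb in the same libraries, and the order was not tested. Gapdh and Pgk1 were much lower, at 31.1 ± 4.40 and 39.9 ± 6.63 CPM per kb, and Pgam1 was at 21.3 ± 1.93. In the NdLN libraries Aldoa was at 222 ± 15.8 and Gapdh at 3.88 ± 0.122 CPM per kb. Aldoa, Gapdh, Pgk1, Pgam1, Ldha and Bnip3l have copies or pseudogenes that carry their name in GENCODE M21. A read of 50 bases may match several of them, and how the authors' counting treated such reads is unknown. The levels of these genes are therefore uncertain. Pseudogenes under other names were not searched for, so the same may hold for other members. Eno1b, a near copy of Eno1, had 6.97 ± 1.26 CPM in Tumor and 0.667 ± 0.221 CPM in TdLN libraries. Exons of Pfkm, Pfkp, Aldoa, Tpi1, Gapdh, Ankrd37 and Mxi1 overlap a gene of the table on the other strand, and without strand these counts cannot be told apart. For Ankrd37 the overlap with Lrp2bp takes 349 of 1539 exon bases.

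**Figure D4:**
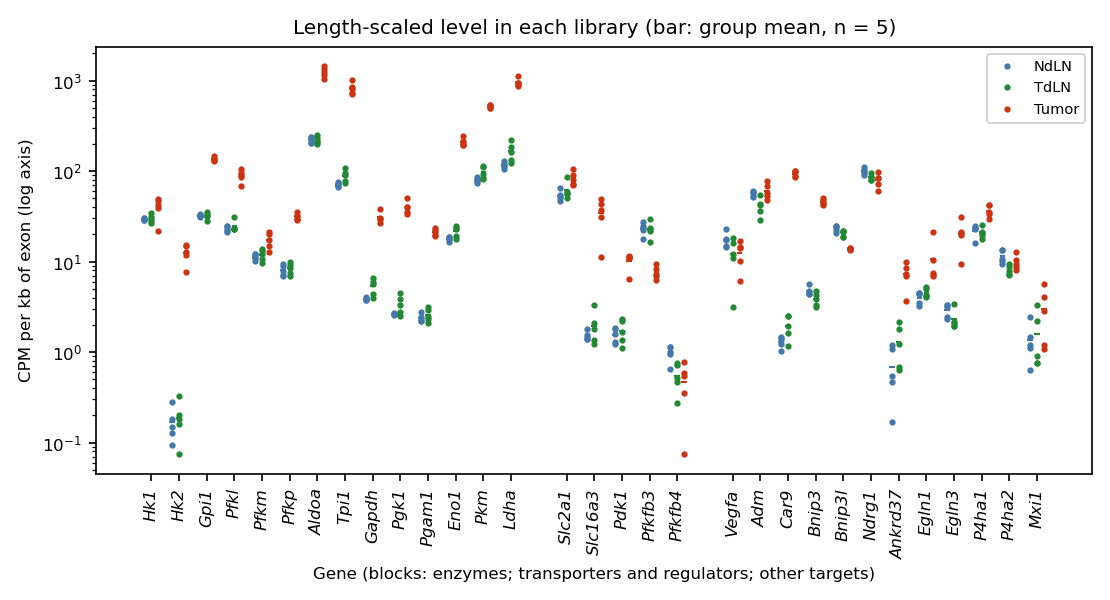
Level of each gene in each library as CPM per kb of exon (log axis), with points for libraries, bars for group means (n = 5) and colours for groups. Aldoa, Ldha, Tpi1 and Pkm are the highest enzymes in the Tumor libraries, and Hk2 spans the widest distance between nodes and tumor.

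Because isozymes of a step share its reaction, the share of each isozyme in the sum per length of its isozymes was compared. Such a share does not depend on library scaling, but its level depends on the length used, here all exon bases of a gene. For Hk1 and Hk2 these are 8532 and 5969 bases, while their longest transcripts have 4278 and 5513 bases. Across 10 shares and 3 comparisons, 19 of 30 exact two-sided permutation tests passed an adjusted p of 0.05, and with 5 libraries against 5 the smallest p possible is 0.00794. Hk2 made up 25.7, 19.3, 21.2, 27.5 and 26.5% of Hk1, Hk2 and Hk3 together in Tumor 1 to 5. In TdLN libraries its mean share was 0.611% ± 0.243, and in NdLN libraries 0.564% ± 0.238 (SD, n = 5; Tumor against TdLN exact permutation p = 0.00794, adjusted p = 0.0159). In share, Pfkm fell from 26.3% ± 3.94 of the phosphofructokinases in TdLN to 12.4% ± 1.57 in Tumor libraries, and Pfkl rose from 54.9% ± 2.67 to 64.6% ± 2.99 (both exact permutation p = 0.00794, adjusted p = 0.0159). Without division by length the difference for Pfkl was 3.40 percentage points in place of 9.75 and no longer passed (exact permutation adjusted p = 0.155).

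Ldha, although higher, made up less of its family in the tumor. Its share of Ldha and Ldhb was 76.2, 78.9, 82.5, 77.6 and 78.1% in Tumor 1 to 5. In TdLN 1 to 5 the share was 99.4, 98.5, 99.1, 97.8 and 98.7%, and in NdLN 1 to 5 98.1, 97.6, 97.6, 97.5 and 97.6%. All Tumor shares were below all node shares (exact permutation p = 0.00794, adjusted p = 0.0159). Ldhb, the heart-type subunit that favours the use of lactate, was at 554, 362, 312, 411 and 415 CPM in Tumor libraries. In TdLN libraries Ldhb was at 2.08, 3.81, 2.65, 4.48 and 2.72 CPM, so that its log2 fold change (7.03 ± 0.24) exceeded that of Ldha. Slc16a3, the lactate exporter, made up 25.1, 48.8, 58.1, 51.7 and 41.7% of the lactate transporters Slc16a1 and Slc16a3 in Tumor 1 to 5, against a mean of 2.86% ± 1.09 in TdLN libraries (exact permutation p = 0.00794, adjusted p = 0.0159). Slc16a1 itself fell, from 295 ± 51.9 to 169.9 ± 17.5 CPM (-0.80 ± 0.18). Pdk1 rose from 5.34% ± 1.42 to 19.1% ± 3.03 of the 4 pyruvate dehydrogenase kinases (exact permutation p = 0.00794, adjusted p = 0.0159). Pdk4, the kinase tied to fat use, fell from 21.4 ± 7.94 to 1.88 ± 1.02 CPM. Pfkfb3 fell from 92.6% ± 1.17 to 82.1% ± 2.15 of its family (exact permutation p = 0.00794, adjusted p = 0.0159). Slc2a1 made up 98.6% ± 0.608 of Slc2a1 and Slc2a3 in Tumor libraries, against 99.6% ± 0.335 in TdLN libraries (exact permutation p = 0.00794, adjusted p = 0.0159). The shares of Pfkp (exact permutation p = 0.0556, adjusted p = 0.0833) and Pfkfb4 (exact permutation p = 0.0635, adjusted p = 0.0907) did not pass in this comparison.

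Between the nodes the isozyme shares differed little. Ldha made up 98.7% ± 0.624 in TdLN against 97.7% ± 0.231 in NdLN libraries, and Pfkfb4 2.16% ± 0.518 against 3.95% ± 0.995 of its family (both exact permutation p = 0.0159, adjusted p = 0.0251). The groups overlapped for both genes. Leaving out a library ended the call in 7 of 10 fits for Ldha and 8 of 10 for Pfkfb4. Each lost call had an exact permutation adjusted p of 0.0501. With a library fewer this test can reach only coarser p-values. These losses therefore do not show whether the differences depend on single libraries. The other 8 shares did not pass between the nodes.

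**Figure D5:**
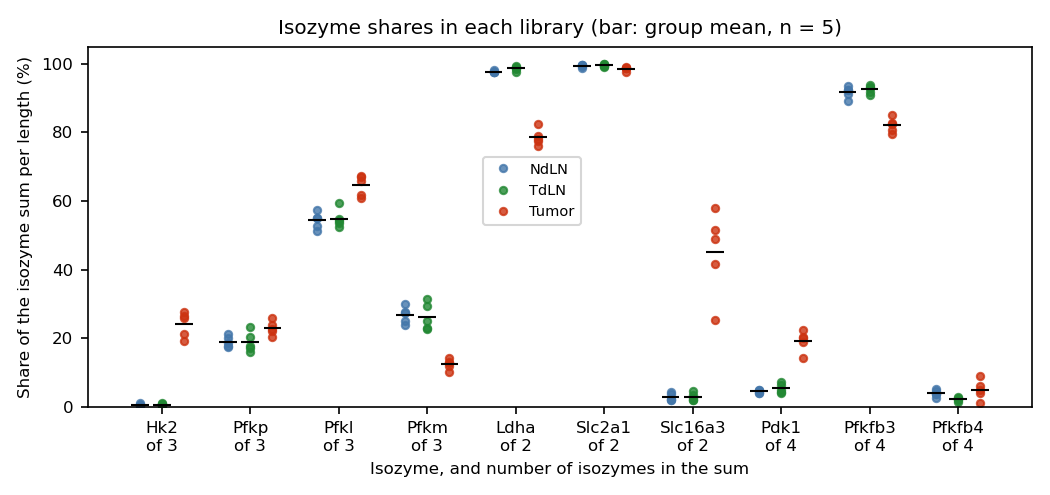
Share (%, y axis from 0) of each isozyme in the per-length sum of its isozymes (x axis), with a point for each library, coloured by group, and bars for group means (n = 5). The Tumor points are apart from both nodes for Hk2, Pfkl, Pfkm, Ldha, Slc16a3, Pdk1 and Pfkfb3, and the 2 node groups lie together except for small differences in Ldha and Pfkfb4.

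Among transporters and regulators the genes did not move together. Slc2a1 encodes GLUT1, the glucose importer, and was at 248, 316, 366, 279.8 and 253 CPM in Tumor 1 to 5. It was at 198, 175, 302, 200.4 and 207 CPM in TdLN 1 to 5, where TdLN 3 reached into the Tumor values, and at 190.3, 163, 228, 175 and 188 CPM in NdLN 1 to 5. The log2 fold change against TdLN was small (0.43 ± 0.15, edgeR adjusted p = 0.0204), and the call ended without TdLN 2 (0.36), TdLN 5 (0.38), Tumor 2 (0.37) or Tumor 3 (0.31). Slc16a3 encodes MCT4, which carries lactate out of glycolytic cells (ENSMUSG00000025161, chr11:120948480-120960868 on the plus strand), and was at 59.3, 199, 264, 229 and 165 CPM in Tumor 1 to 5. Its TdLN values were 9.55, 6.50, 17.8, 11.0 and 7.34 CPM and its NdLN values 9.57, 8.29, 7.38, 7.39 and 7.79 CPM. Tumor 1 was the lowest Tumor library and still above every node library (log2 fold change 4.13 ± 0.37).

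Pdk1, which keeps pyruvate out of mitochondria by blocking pyruvate dehydrogenase, was at 49.6, 87.0, 85.7, 85.4 and 89.9 CPM in Tumor 1 to 5. It was at 18.0, 13.0, 8.69, 17.2 and 10.7 CPM in TdLN and at 12.5, 9.68, 10.1, 13.9 and 14.3 CPM in NdLN libraries. Again Tumor 1 was the lowest Tumor library, without overlap with the nodes (2.56 ± 0.22). Pfkfb3 makes fructose 2,6-bisphosphate, the activator of phosphofructokinase (ENSMUSG00000026773, chr2:11471433-11554077 on the minus strand), and went the other way. It was at 47.8, 54.9, 71.4, 63.0 and 52.0 CPM in Tumor 1 to 5, against 177, 126, 223, 166 and 175 CPM in TdLN 1 to 5. In NdLN 1 to 5 it was at 177, 135, 208, 171 and 187 CPM, so each Tumor library was below each node library. The log2 fold change was -1.58 ± 0.16 (edgeR adjusted p = 4.76e-07). Pfkfb4, of the same family, was low throughout, at 0.369, 1.71, 2.64, 2.87 and 3.80 CPM in Tumor and 3.52, 1.33, 3.68, 2.51 and 2.31 CPM in TdLN libraries. Its NdLN values were 4.66, 4.95, 5.57, 5.57 and 3.16 CPM, and the difference between Tumor and TdLN did not pass (-0.23 ± 0.45, adjusted p = 0.68).

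The other hypoxia targets ranged from strong increases to a decrease. Car9 encodes a carbonic anhydrase of the cell surface that is widely used as a hypoxia marker (ENSMUSG00000028463, chr4:43506966-43513729 on the plus strand), and was at 203, 230.2, 230.0, 223 and 196 CPM in Tumor 1 to 5. It was at 5.77, 5.76, 2.68, 3.72 and 4.52 CPM in TdLN 1 to 5 and 3.32, 2.35, 3.17, 2.83 and 3.41 CPM in NdLN 1 to 5. The Tumor libraries were close to each other and far from the nodes (log2 fold change 5.59 ± 0.21, edgeR adjusted p = 2.07e-11). Bnip3, a mitophagy receptor, was at 104, 95.7, 108, 113 and 98.6 CPM in Tumor and 7.53, 7.15, 9.70, 10.8 and 8.76 CPM in TdLN libraries. With 10.0, 10.0, 12.8, 10.6 and 10.8 CPM in NdLN libraries, its Tumor values were again without overlap (3.56 ± 0.13). Bnip3l, its close relative with the same role, moved in the opposite direction. It was at 54.9, 53.4, 52.8, 54.0 and 51.4 CPM in Tumor, 71.9, 83.0, 72.4, 85.0 and 83.2 CPM in TdLN and 95.2, 79.8, 93.0, 86.2 and 94.5 CPM in NdLN libraries. Every Tumor library was below every node library, with a log2 fold change of -0.57 ± 0.08 (adjusted p = 2.39e-05).

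Of the oxygen-sensing prolyl hydroxylases, which HIF itself raises, Egln3 was at 56.0, 52.0, 83.5, 55.5 and 24.9 CPM in Tumor 1 to 5. In TdLN libraries it was at 5.20, 5.55, 5.78, 9.13 and 5.22 CPM and in NdLN libraries at 8.45, 8.92, 8.88, 6.48 and 6.12 CPM. All Tumor libraries were above the nodes, with Tumor 5 the lowest (3.14 ± 0.28). Egln1, the main hydroxylase of HIF-1 alpha, rose from 16.3 ± 2.02 to 38.2 ± 21.5 CPM (1.22 ± 0.27), with Tumor 1 at 75.6 CPM and the other Tumor libraries from 25.2 to 37.5 CPM. Without Tumor 1 its log2 fold change was 0.82. Ankrd37, a small HIF target, rose from 2.00 ± 1.04 to 11.2 ± 3.59 CPM (2.48 ± 0.49). P4ha1, a collagen prolyl hydroxylase, rose as well (0.80 ± 0.14), and so did Adm, the vasoactive peptide adrenomedullin (0.56 ± 0.16, adjusted p = 0.00622).

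Vegfa, the vascular growth factor and a textbook target of HIF, did not pass. It was at 26.5, 61.3, 62.0, 72.3 and 43.4 CPM in Tumor 1 to 5 and 47.4, 52.5, 13.6, 78.1 and 69.3 CPM in TdLN 1 to 5. In NdLN 1 to 5 it was at 62.0, 75.0, 76.9, 64.6 and 97.8 CPM. The groups overlapped, with TdLN 3 far below the other TdLN libraries, and the log2 fold change was 0.03 ± 0.35 (adjusted p = 0.954), or -0.22 without TdLN 3. Ndrg1, a stress-responsive gene that hypoxia raises in many cells, was at 474, 555, 641, 548 and 398 CPM in Tumor libraries. It was at 569, 562, 629.6, 529 and 533 CPM in TdLN and at 648, 728, 598, 676 and 669 CPM in NdLN libraries. It was thus abundant in all groups, overlapped between Tumor and TdLN and did not pass (-0.11 ± 0.11, adjusted p = 0.413). P4ha2, the second collagen hydroxylase (0.28 ± 0.14, adjusted p = 0.0984), and Mxi1, an antagonist of MYC (0.89 ± 0.53, adjusted p = 0.16), did not pass either. Mxi1 ran from 7.39 to 38.3 CPM within the Tumor group. Without TdLN 4 it passed, at 1.34 (adjusted p = 0.0416). P4ha2 passed with library totals as the only scaling, at 0.39 (adjusted p = 0.027), and without Tumor 1, at 0.35 (adjusted p = 0.0471).

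Against the non-draining node, which shares the Tumor libraries with the comparison above, 23 members were higher, 4 lower and 4 did not pass. Over all genes 66.5% passed, 34.0% higher and 32.5% lower, in edgeR's quasi-likelihood test. The 14 enzymes were all higher, with a median log2 fold change of 2.86, and Slc2a1 (0.63 ± 0.15) had no overlap here. Of the other targets 6 were higher and 2 lower, with a median of 0.92. Hk2 was higher by 6.22 ± 0.40, Ldha by 3.03 ± 0.15, Slc16a3 by 4.50 ± 0.37 and Car9 by 6.16 ± 0.22 on the log2 scale. The 4 lower genes were Pfkfb3 (-1.60 ± 0.16), Bnip3l (-0.75 ± 0.08), Pfkfb4 (-1.06 ± 0.45, adjusted p = 0.0473) and Ndrg1 (-0.34 ± 0.11). The call of Ndrg1 was lost with library totals (-0.17, adjusted p = 0.229) and with the length offset (-0.20, adjusted p = 0.111). Vegfa (-0.50 ± 0.36, adjusted p = 0.223), Adm (0.10 ± 0.16, adjusted p = 0.576), P4ha2 (-0.21 ± 0.14) and Mxi1 (1.12 ± 0.53, adjusted p = 0.0773) did not pass. The call of Hk1 (0.43 ± 0.17) ended when any library but Tumor 1 was left out, with values from 0.31 (without Tumor 2) up to 0.43 among the fits that lost it. That of Pfkfb4 ended when any library but NdLN 5, Tumor 1 or Tumor 5 was left out, with adjusted p from 0.054 (without Tumor 4) to 0.0911 (without Tumor 2). With all libraries, Mxi1 passed in DESeq2 (1.12, adjusted p = 0.0419), with library totals (1.30, adjusted p = 0.0422) and with the length offset (adjusted p = 0.0268). In edgeR with TMM scaling it passed without NdLN 2 (1.43), Tumor 4 (1.31) or Tumor 5 (1.33).

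Does the draining node differ from the non-draining node in these genes? None of the 31 members passed in edgeR's quasi-likelihood test, where 3.49% of all genes did, 1.84% higher and 1.64% lower. At an unadjusted p of 0.05, 11 members passed, 7 higher and 4 lower, against 17.6% of all genes, 8.43% higher and 9.15% lower. The 7 higher were Ldha (0.50 ± 0.14, adjusted p = 0.0634), Gapdh (0.46 ± 0.14, adjusted p = 0.0816), Pgk1, Tpi1, Pkm, Eno1 and Car9. The 4 lower were P4ha2 (-0.50 ± 0.14, adjusted p = 0.0737), Adm, Bnip3 and Bnip3l. DESeq2 called Ldha, Gapdh and Car9 higher and P4ha2 lower, and limma's voom called Ldha higher and Adm lower. Of the 14 enzymes 12 had a log2 fold change above 0, with a median of 0.15 and a range from -0.01 to 0.50. The 12 other targets had a median of -0.21, and all genes tested had a median of -0.006. The share of all genes above 0 is not given here, and the difference between the roles was not tested.

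The values behind this differed within the draining nodes. TdLN 1 to 3 held the 3 highest summed shares of the enzymes, and TdLN 4 lay within the NdLN values. Ldha was at 723, 544 and 613 CPM in TdLN 1 to 3, and at 412 and 445 CPM in TdLN 4 and 5. The highest NdLN library had 431 CPM. Ldha passed without TdLN 4 (0.58, adjusted p = 0.0208) and without TdLN 5 (0.57, adjusted p = 0.0373), Gapdh without TdLN 4 (0.55, adjusted p = 0.0243) and Car9 without TdLN 3 (0.71, adjusted p = 0.0186). P4ha2 was at 45.1, 48.6, 55.1, 44.7 and 58.7 CPM in TdLN and 66.6, 84.1, 63.1, 83.7 and 58.7 CPM in NdLN libraries, and was the only member without overlap between the nodes, by the narrow distance between TdLN 5 and NdLN 5. Of all genes 2.87% were higher and 4.95% of all genes were lower without overlap. Cell cycle genes summed to 0.109%, 0.0755%, 0.0657%, 0.0315% and 0.0426% of counts in TdLN 1 to 5 and to 0.0234% to 0.0327% in NdLN libraries, and 9 of 12 rose. Between the nodes 1.84% of all genes were called higher and 1.64% lower. Immediate early genes fell in 10 of 13, from 3.58% ± 0.323 to 1.83% ± 0.334 of counts. The part of these states in the values of the hypoxia and glycolysis genes was not tested.

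Isozymes, other transporters and gluconeogenic genes outside the 31 were read as a list of 32, of which 23 were tested. In Tumor against TdLN 10 rose and 5 fell, a share close to the 62.0% of all genes that passed. Among the called genes with a mean of at least 10 CPM in a group, the 4 largest changes were those of Aldoc, Ldhb, Eno3 and Pdk4. Aldoc, the brain-type aldolase, rose from 0.277 ± 0.222 to 102 ± 17.7 CPM, and Eno3, the muscle enolase, from 4.05 ± 0.971 to 177 ± 39.3 CPM. Fbp2, a gluconeogenic bisphosphatase below that level, had no count in the nodes and 3.19 ± 1.62 CPM in Tumor libraries, and is named here after its values were seen. In TdLN against NdLN 1 rose and 0 fell, the riser being Tigar, a phosphatase that lowers fructose 2,6-bisphosphate (0.88 ± 0.21, adjusted p = 0.0347).

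HIF and its regulators were a list of 17 symbols, of which 14 were tested. In Tumor against TdLN 6 rose and 4 fell, near the shares over all genes (31.9% higher and 30.1% lower), and in TdLN against NdLN none passed. The alpha subunits went apart. Hif1a, the subunit of HIF-1, was at 247, 391, 347, 328 and 347 CPM in Tumor 1 to 5, against 224, 134, 134, 154 and 165 CPM in TdLN and 117, 103, 133, 152 and 151 CPM in NdLN libraries. Epas1, the subunit of HIF-2 and typical of endothelium, was at 3.07, 8.37, 7.50, 6.58 and 10.7 CPM in Tumor 1 to 5, against 68.7, 78.4, 101, 82.0 and 104 CPM in TdLN and 114, 154, 139, 143 and 145 CPM in NdLN libraries. Every Tumor library was above every node library for Hif1a (1.03 ± 0.16) and below it for Epas1 (-3.58 ± 0.25). Vhl, which binds hydroxylated HIF, rose by 0.37 ± 0.10, the acetyltransferase gene Crebbp fell (-1.33 ± 0.12) and Eloc, a partner of Vhl, rose (0.80 ± 0.13). HIF alpha is controlled mainly as protein, which these counts do not measure.

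Further hypoxia-responsive genes were a list of 42 symbols, of which 38 were tested. In Tumor against TdLN 21 rose and 6 fell, with a median log2 fold change of 0.72, where 31.9% of all genes were higher and 30.1% lower. The 4 largest changes among called genes of at least 10 CPM in a group are named. Tfrc, the transferrin receptor (4.87 ± 0.36), Bhlhe41, a transcriptional repressor (7.43 ± 0.80), and Plod2, a collagen lysyl hydroxylase (3.23 ± 0.24), rose, while Stc2, a secreted stanniocalcin (-5.02 ± 0.42), fell. In TdLN against NdLN 0 rose and 1 fell, the repressor gene Bhlhe40 (-0.57 ± 0.12, adjusted p = 0.0203).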

How the data were processed

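The authors deposited a table of raw read counts, with 21839 genes in rows and 15 libraries in columns. The submitters' processing notes name CASAVA 1.8.2, STAR 2.4, featureCounts 1.4.6 and build GRCm38. For the annotation release, the strand setting and multi-mapped reads the handling is not given in the sources used here. Per the labels' protocols, 1 ng of RNA per library was amplified and read as single reads of 50 bases. Lengths and positions came from GENCODE M21 (21628 IDs matched), promoters from RefSeq. All 15 libraries entered 1 fit of edgeR 4.0.16 (R 4.3.3; glmQLFit with robust = TRUE, glmQLFTest, TMM, filterByExpr, 13887 genes tested), with Benjamini-Hochberg adjustment over all genes and a threshold of 0.05. The SE was derived from the F statistic. Alternatives were RLE, upper-quartile and total-count scaling, 2 other filters, DESeq2 1.42.0, limma 3.58.1 (voom), a fit of the compared groups only, a replicate block, glmTreat (a test against a log2 fold change of 1), single libraries left out and, added after seeing the data, an offset for transcript length. The fit was tested on simulated data in which far fewer genes changed than were called in the Tumor comparisons. That simulation does not cover changes as wide as these. Isozyme shares were tested by exact permutation (scipy 1.17.1, two-sided) and plots drawn with matplotlib 3.10.9. Values per library are given for the 3 highest and 3 lowest changes of each role and for Slc2a1, Vegfa, Hk1, Hk2, Ldha and Car9, and of each pathway list up to 4 called genes with the largest changes and a mean of at least 10 CPM in a group are named, with Hif1a, Epas1 and Vhl. The members and lists were chosen with earlier results of these data known. Total counts of 23830337 to 37437282 per library set the counting error.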

Additional observations from a re-analysis of the deposited data

Results flagged for a closer look

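Among 93 combinations of a gene and a group and 30 of an isozyme share and a group, 11 had a library whose distance to the next was a large part of the group's range by Dixon's test. Chance alone marks about 1 in 20 such groups. Tumor 1 stood apart for Egln1, at 75.6 CPM against at most 37.5 in the other Tumor libraries, for Gapdh, at 159.7 CPM against at most 125, and for Pdk1, at 49.6 CPM against at least 85.4. TdLN 3 was the highest TdLN library for Pfkl, at 209 CPM, and for Slc2a1, at 302 CPM. TdLN 4 was the highest for Egln3, at 9.13 CPM. In NdLN libraries, NdLN 3 was highest for Bnip3 at 12.8 CPM, NdLN 5 highest for Gapdh at 16.9 CPM and NdLN 1 lowest for P4ha1 at 65.9 CPM. Of the shares, Ldha was at 98.1% in NdLN 1, the highest of its group, and Slc2a1 at 97.5% in Tumor 5, the lowest of its group.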

How the results depend on the processing

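Apart from glmTreat, 23 of the 26 calls in Tumor against TdLN and 24 of the 27 in Tumor against NdLN kept their direction and stayed past the threshold in every alternative in which they were tested, where a minimum of 10 CPM left 29 members. Those lost at least once were Hk1, Slc2a1 and Adm in the first and Hk1, Pfkfb4 and Ndrg1 in the second comparison, and the cause was not tested. With glmTreat all genes called fell to 3525, 4189 and 0 in Tumor against TdLN, Tumor against NdLN and TdLN against NdLN, and members called lower to 1 in each Tumor comparison. In Tumor against NdLN members called lower were 2 with library totals and 2 with the length offset. In TdLN against NdLN members called higher were 2 with library totals, 3 with DESeq2, 1 with voom, 1 with the replicate block and 1 with the length offset, and DESeq2 and voom each called 1 lower, with 972 and 818 of all genes called. Leaving out single libraries gave 225 (without TdLN 1) to 564 (without TdLN 4) genes and 0 to 2 members higher there. Library totals moved the median log2 fold change of all genes from 0.04 to 0.15 and 0.20 in the Tumor comparisons, and the higher share of calls in TdLN against NdLN from 52.89% to 63.51%; it was 40.1% with voom and 38.68% in the fit of the compared groups. Reversals were of uncalled values. For Ndrg1 in Tumor against TdLN they were 0.00325 with library totals and 0.0102 with the length offset, for Pfkfb4 0.0727 with voom, and for Adm in Tumor against NdLN -0.28 with the length offset. Leaving out single libraries gave -0.49 to 0.0416 for Pfkfb4, -0.22 to 0.21 for Vegfa and -0.0194 to 0.17 for Adm. The labels do not say whether a replicate number marks the same animal across groups, and the following values do not decide it. Deviations of same-numbered libraries correlated by -0.21 to 0.25, and 0, 4 and 3 of 10 libraries correlated best with their own number in the 3 comparisons. The replicate block added the call of Ldha in TdLN against NdLN and ended those of Hk1 in both Tumor comparisons and of Pfkfb4 in Tumor against NdLN. The Tumor shares of Pfkp and Slc2a1 against NdLN lost their calls in some fits without a library (exact permutation adjusted p up to 0.0501). With a library fewer the test can reach only coarser p-values, so these losses do not show a dependence on single libraries. The Tumor shares of Pfkl and, against NdLN, Pfkp lost their calls without length division. Divided by the longest transcript, the Pfkp share against NdLN lost its call too (2.86 points, exact permutation adjusted p = 0.0877). Depth limits most the genes near 1 CPM in the nodes, such as Hk2.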

Other observations

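Tumor 1, the library with the lowest total count, lay at an end of the Tumor group for most of the 31 genes. How often Tumor 1 lay at an end over all genes is not given here. The counts therefore do not show a trait particular to the 31 genes. It was the highest of the 5 Tumor libraries for 11 genes, among them Aldoa, Tpi1, Gapdh, Pgk1, Pgam1, Eno1 and Ldha, and the lowest for 12, among them Hk1, Hk2, Pfkl, Slc16a3, Pdk1 and Vegfa. The longest transcripts of the 11 genes had a median of 1825 bases and those of the 12 genes a median of 3886.5 bases. In the same library fibroblast markers held 0.141% of counts, against 0.292% to 1.08% in the other Tumor libraries, and pigment cell markers 3.92%, against 2.68% to 4.16%.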
